A study of Mus musculus with 7 samples.

Results

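The genes described here are the expressed neighbours of Slc29a1, the gene deleted in the knockout mice. They lie on chromosome 17 between 43896126 and 47910532 (GRCm39), which is 2 Mb on each side of Slc29a1, and reach at least 1 TPM (transcript abundance, corrected for length and given as a share of the library) in at least 3 of 7 libraries. Slc29a1 itself and 4 genes of the mitochondrial ribosomal protein families (Mrpl and Mrps) were left out. Of the other 100 genes in the window, 46 met the rule and 54 did not, and 20 of the latter were at 0 TPM in all 7 libraries. Of the 46, 44 are annotated as protein coding. The whole fit held 13798 genes.

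The libraries were RNA-seq of CD45+ CD8+ T cells sorted from MCA205 tumours, a transplantable mouse fibrosarcoma grown under the skin, 14 days after implantation. The 4 ENT1KO libraries (replicates 11, 12, 14 and 15) came from Slc29a1-/- hosts and the 3 WT libraries (replicates 1, 2 and 3) from C57Bl/6 hosts. In both groups the tumour cells themselves were MCA205, and only the host carried the deletion. The sources used here give neither the ages of the mice nor the construct and strain behind the deletion. They do not say that each library is a separate animal, so p-values measure the spread between these libraries. Wherever a gene is given in every library, the ENT1KO values stand in the order of replicates 11, 12, 14 and 15 and the WT values in the order 1, 2 and 3.

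Slc29a1 encodes ENT1, an equilibrative transporter that moves adenosine and other nucleosides across membranes. A gene deleted in embryonic stem cells of one mouse strain and crossed into another takes flanking DNA along, because crossovers close to the target are rare, and an inserted cassette can also alter nearby transcription. For these reasons flanking genes are often examined in knockout lines. The comparison asked whether they differed between ENT1KO and WT, and by how much once the level of T cell or tumour transcripts in each library was taken into account. The alleles carried around the locus were not read here.

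An estimate from the smallest step of the normalized counts gave between 18624318 and 19660792 reads per library assigned to genes. The steps of WT replicates 1 and 3 lie too near 1 to prove whole reads. Cd8a stood between 309.8 and 1304.3 TPM, Cd4 at no more than 3.22 TPM and Ncr1 of NK cells at no more than 1.53 TPM. Ncr1 is 1 of 5 NK list genes, with Klrb1c, Tyrobp, Fcer1g and Eomes. Their summed level was 117.7 to 289.8 TPM in ENT1KO and 427.6 to 556.8 TPM in WT. Whether that sum comes from NK cells was not tested. The libraries differed in content. The summed level of 16 CD8 T cell identity genes was 10689 to 13080.3 TPM in ENT1KO and 3312 to 8043 TPM in WT. That of 23 tested fibroblast and tumour genes was 7.71 to 1079.8 TPM in ENT1KO, lowest in replicate 15 and highest in replicate 14, and 5088 to 9665 TPM in WT. That of 19 macrophage and monocyte genes was 327 to 1791 TPM in ENT1KO and 4275 to 6380.3 TPM in WT. That of 10 dendritic genes was 557.3 to 1353 TPM in ENT1KO and 2096 to 3033 TPM in WT. That of 5 erythroid genes was 57.7 to 238.5 TPM in ENT1KO and 696.9 to 1966 TPM in WT. In bulk libraries, fewer cells of a type and less RNA per cell cannot be told apart. Slc29a1 was at 13.6, 13.2, 17.6 and 15 TPM in ENT1KO and 51.0, 58.9 and 49.7 TPM in WT (log2 -1.78, SE 0.13, limma adjusted p = 0.00121). The targeted gene was thus lower in each ENT1KO library, in the direction of the labels. It was not at 0, and which exons were removed is not known here, so a gene total cannot tell residual from truncated transcript. The tumour cells did not carry the deletion, and what they add to the Slc29a1 level in either group was not tested.

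Of the 46 flanking genes, 7 rose and 16 fell in ENT1KO at an adjusted p of 0.05 in limma (log2(TPM + 1), adjusted over all tested genes), and 23 did not pass. That is 50% of the flanking genes, beside 50.6% of all 13798 genes tested. The rises made up 15.2% of the flanking genes, beside 27.5% of all tested genes, and the falls 34.8%, beside 23.1%. The median log2 difference, ENT1KO minus WT, was -0.23 over the flanking genes and 0.15 over all tested genes. Because 1 is added before the log, differences of genes with low TPM come out too small. The groups did not overlap for 27 of the 46, 10 higher and 17 lower in ENT1KO (58.7%), beside 55.2% of all tested genes (30.3% higher and 24.9% lower). A called fall of more than 1 on the log2 scale was seen in 7 of the 46, beside 14.7% of all tested genes, and such a rise in 1, Gtpbp2, beside 6.12%. Of the 46, 6 met the expression rule only through WT (Rcan2, Enpp5, Rsph9, Dnph1, Ptk7 and Guca1a) and 1 only through ENT1KO (Clic5). All 7 are among the calls, and this way of entering favours a difference. Near the limit of the rule, Slc25a27, a mitochondrial carrier, was inside with 1.21 ± 0.271 TPM in ENT1KO (SD, n = 4) and 0.82 ± 0.625 TPM in WT (SD, n = 3), and Cyp39a1, an oxysterol hydroxylase, was outside with 2 libraries at 1 TPM or more.

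**Figure D1:**
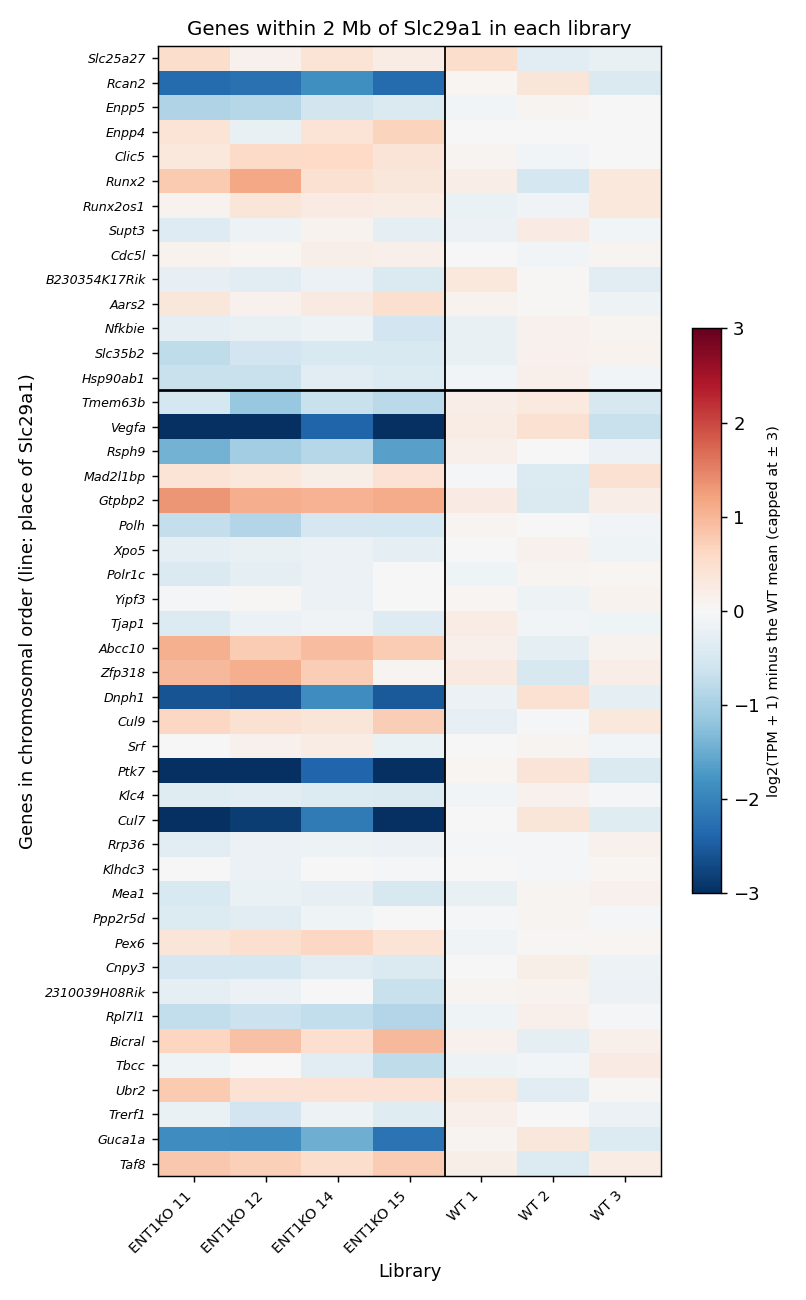
Level of each flanking gene (rows, in chromosomal order) in each library (columns), as log2(TPM + 1) minus the WT mean of that gene, with colours capped at 3 in either direction. Vegfa, Dnph1, Ptk7, Cul7, Rcan2, Rsph9 and Guca1a form dark rows that are palest in ENT1KO replicate 14, and the row of Gtpbp2, which rose, stands between those of Mad2l1bp, which did not pass, and Polh, which fell.

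The 7 flanking genes closest to Slc29a1, all within 0.25 Mb, had 3 falls and no rise. The nearest, Hsp90ab1, lies 11.9 kb away (45878701 to 45884197) and encodes the constitutive cytosolic HSP90 chaperone. It was the most abundant flanking gene, at 1103.97, 1114.7, 1411.6 and 1332.3 TPM in ENT1KO and 1674.3, 1967.7 and 1666.5 TPM in WT. Each ENT1KO library was below each WT library, and the log2 difference was -0.52 (SE 0.13, limma adjusted p = 0.0113). Processed copies of this gene elsewhere in the genome can take part of its reads. Next to it, 17.5 kb from Slc29a1, Slc35b2 carries the sulphate donor PAPS into the Golgi. Slc35b2 was at 21.4, 24.3, 26.3 and 26.3 TPM in ENT1KO and 31.3, 39.99 and 39.3 TPM in WT, again without overlap (log2 -0.56, SE 0.13, limma adjusted p = 0.008). On the other side, 60.6 kb away, Tmem63b, a mechanosensitive cation channel whose annotated span overlaps Mrpl14, was at 9.83, 6.09, 8.86 and 7.91 TPM in ENT1KO and 16.8, 18.2 and 10.2 TPM in WT. WT replicate 3 lay close to ENT1KO replicate 11, the log2 difference was -0.79 (SE 0.23, limma adjusted p = 0.021), and it no longer passed when ENT1KO replicate 12, WT replicate 1 or WT replicate 2 was removed (0.0505 to 0.0795).

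The other 4 close neighbours did not pass. Nfkbie, an inhibitor of NF-kappa-B 22.03 kb from Slc29a1, was at 27.2, 28.5, 30.0 and 21.8 TPM in ENT1KO and 28.5, 36.6 and 35.2 TPM in WT, with overlapping groups (log2 -0.30, SE 0.14, limma adjusted p = 0.103). Aars2, the mitochondrial alanyl-tRNA synthetase, was at 5.99, 5.07, 5.73 and 6.80 TPM in ENT1KO and 5.02, 4.72 and 4.00 TPM in WT. The lowest ENT1KO library of Aars2 was just above the highest WT library, and the limma adjusted p was 0.143. Cdc5l, a core splicing factor 151 kb away, was nearly level, at 65.7, 63.1, 69.4 and 68.2 TPM in ENT1KO and 60.9, 57.2 and 64.9 TPM in WT. The long noncoding RNA B230354K17Rik, which overlaps Cdc5l, was at 5.78, 5.30, 6.08 and 4.95 TPM in ENT1KO and 9, 7.16 and 5.28 TPM in WT, where WT replicate 3 lay within the ENT1KO range. On the authors' normalized counts Nfkbie and B230354K17Rik passed as lower (limma adjusted p = 0.0479 and 0.0173), and the Cdc5l difference changed sign from 0.13 to -0.04, neither value passing.

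**Figure D2:**
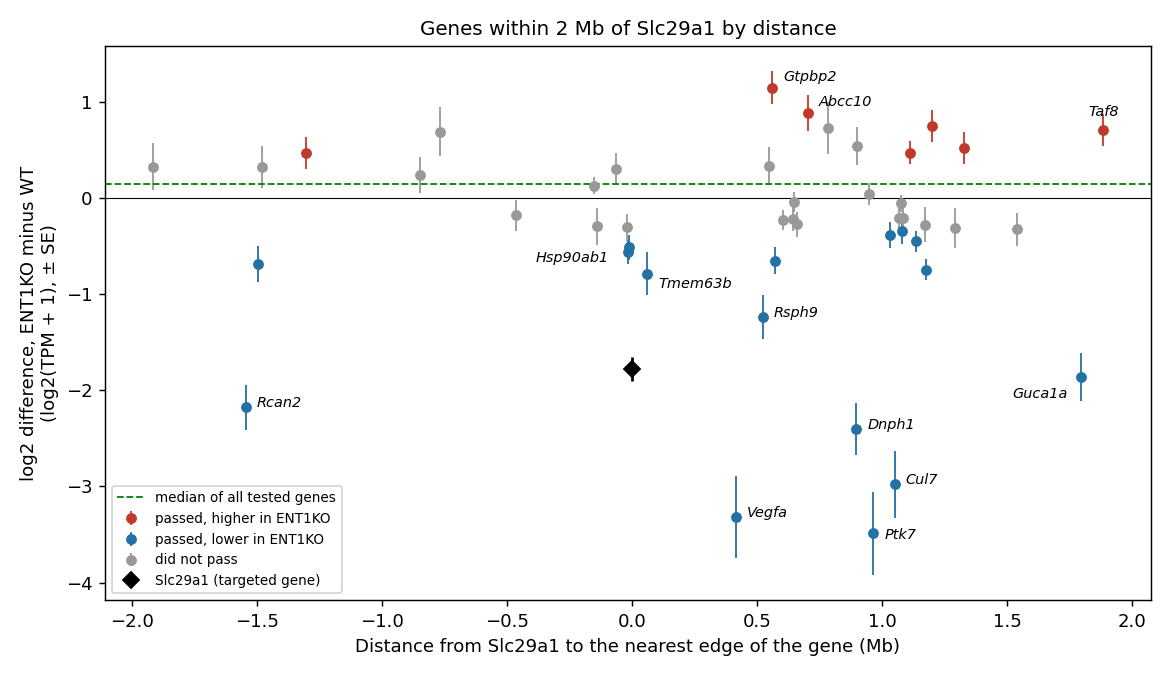
Log2 difference between ENT1KO and WT (log2(TPM + 1), bars are SE) of each flanking gene against its distance from Slc29a1 in Mb, coloured by the limma call, with Slc29a1 as a black diamond at distance 0. The falls beyond 1 on the log2 scale sit 417 kb or more from Slc29a1, while those closest to it lie between -0.79 and -0.52.

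The share of calls was not higher close to Slc29a1. Within 0.25 Mb 42.9% of the flanking genes passed (3 of 7), from 0.5 to 1 Mb 37.5% (6 of 16) and from 1 to 2 Mb 61.9% (13 of 21), with 1 of the 2 in between, Vegfa. Among genes 2 to 10 Mb away 58.2% passed (26 higher and 20 lower of 79), with a median log2 difference of 0.16. That range was uneven. From 2 to 5 Mb 4 were higher and 12 lower of 27, with a median of -0.11, so falls outnumbered rises there as well. From 5 to 10 Mb 22 were higher and 8 lower of 52, with a median of 0.31. On the rest of the chromosome 52.4% of 578 passed. The median absolute log2 difference was 0.30 within 0.25 Mb, 0.46 over all 46, 0.46 from 2 to 10 Mb and 0.47 over all tested genes. These bins are small and were not tested against each other. At the lower edge of the window, Pla2g7, which straddles it, a secreted phospholipase of macrophages, was at 10.9 ± 7.58 TPM in ENT1KO and 121.6 ± 30.9 TPM in WT (log2 -3.59). Just beyond that edge, Tnfrsf21 was at 0.855 ± 0.881 against 4.47 ± 0.843 TPM and Cd2ap at 21.6 ± 3.62 against 19.2 ± 3.195 TPM. The cyclin gene Ccnd3, which lies almost wholly inside the window and straddles its higher edge (47910532), so that the rule left it out, rose and was at 131 ± 23.3 against 94.4 ± 14.8 TPM (log2 0.46, limma adjusted p = 0.0449). Bysl, which straddles that edge as well, was at 10.9 ± 0.864 against 11.2 ± 1.46 TPM and Med20 at 17.3 ± 1.73 against 18.4 ± 1.38 TPM.

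The role groups that follow hold 3 to 8 genes each. Their counts stand beside 27.5% higher and 23.1% lower over all tested genes, and no group was tested. Of 4 surface and secreted proteins 3 passed, all lower. These include the falls of Ptk7 and Vegfa, which were the largest on the log2(TPM + 1) scale. Ptk7 and Enpp5 had met the expression rule only through WT. Vegfa, the vascular endothelial growth factor (46327919 to 46343295), was at 8.2, 7.17, 15.7 and 3.83 TPM in ENT1KO and 101.4, 119.4 and 54.3 TPM in WT. The highest ENT1KO library, replicate 14, was still well below the lowest WT library, and the means differed 10.5-fold (log2 -3.32, SE 0.42, limma adjusted p = 0.00147). Ptk7, a pseudokinase receptor of planar polarity signalling in epithelial and mesenchymal cells, was at 0.26, 0.84, 2.72 and 0.05 TPM in ENT1KO and 19.2, 24.4 and 13.4 TPM in WT. Here too replicate 14 was the highest ENT1KO library and replicate 15 the lowest (log2 -3.49, SE 0.43, limma adjusted p = 0.00133). Enpp5, of the ectonucleotide pyrophosphatase family, fell from 1.87 ± 0.166 to 0.798 ± 0.287 TPM (log2 -0.69), a call lost without WT replicate 2 (limma adjusted p = 0.0627). Its neighbour Enpp4, an ectoenzyme of the same family, did not pass (6.74 ± 1.83 against 5.07 ± 0.0586 TPM).

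In the cell cycle and DNA metabolism group 3 of 4 genes fell and none rose, beside 23.1% lower and 27.5% higher over all tested genes. One of the falls, Dnph1, had met the expression rule only through WT. Dnph1, a hydrolase that clears modified deoxynucleotides, was at 0.64, 0.60, 1.73 and 0.72 TPM in ENT1KO and 7.71, 12.6 and 7.21 TPM in WT (log2 -2.40, SE 0.27, limma adjusted p = 0.00121). Polh, the translesion DNA polymerase eta, was at 7.89, 6.94, 9.29 and 9.21 TPM in ENT1KO and 14.5, 13.6 and 12.8 TPM in WT. For Polh the ENT1KO libraries lay close together, replicate 15 beside replicate 14 (log2 -0.65, SE 0.14, limma adjusted p = 0.00644). Mea1 was at 58.3, 68.8, 66.97 and 56.7 TPM in ENT1KO and 67.9, 85.1 and 87.9 TPM in WT, with WT replicate 1 inside the ENT1KO range (log2 -0.35, limma adjusted p = 0.0491). That call was lost in 6 of the 7 fits that leave out 1 library (limma adjusted p up to 0.135), and Mea1 overlaps both Klhdc3 and Ppp2r5d. Mad2l1bp, which silences the spindle checkpoint, did not pass (24.2 ± 1.97 against 19.6 ± 6.34 TPM).

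Among ubiquitin ligase genes 1 rose and 1 fell of 4. Cul7, a cullin scaffold, was at 1.56, 2.72, 5.07 and 1.25 TPM in ENT1KO and 25.7, 32.99 and 19.8 TPM in WT (log2 -2.98, SE 0.35, limma adjusted p = 0.00127). Its relative Cul9 had the opposite sign, 4.20 ± 0.608 against 2.60 ± 0.714 TPM, without overlap but just short of passing (log2 0.54, limma adjusted p = 0.0501). Ubr2, a ligase of the N-degron pathway, was at 42.8, 33.7, 33.7 and 33.3 TPM in ENT1KO and 30.4, 19.4 and 25.2 TPM in WT. ENT1KO replicate 11 stood above the other ENT1KO libraries, and the rise (log2 0.52, SE 0.16, limma adjusted p = 0.0301) did not hold when any of ENT1KO replicates 11 and 12 and WT replicates 2 and 3 was removed (limma adjusted p from 0.0527 to 0.0921). Klhdc3, a substrate receptor, was level at 33.3 ± 2.04 against 34.7 ± 1.08 TPM.

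Of 6 transcription factors and regulators of immune cells 1 fell and none rose. Rcan2, a regulator of the phosphatase calcineurin, was listed at 0, 0.06, 0.38 and 0 TPM in ENT1KO and at 4.22, 5.42 and 2.68 TPM in WT (log2 -2.18, SE 0.24, limma adjusted p = 0.00121). On log2(normalized count + 1) it had the largest fall of the 46 genes, at -5.91 beside -5.51 for Ptk7. Runx2, a Runt family factor that is active in CD8 T cells as well as in bone-forming cells, was at 72.7, 95.1, 58.1 and 53.3 TPM in ENT1KO and 48.04, 28.9 and 52.8 TPM in WT. The lowest ENT1KO library was barely above the highest WT library, and Runx2 missed the threshold (log2 0.69, SE 0.26, limma adjusted p = 0.0535). It passed without ENT1KO replicate 15 or WT replicate 3 (limma adjusted p = 0.042 and 0.0399). Zfp318, a zinc finger protein, missed it too, with overlapping groups at 28.3 ± 7.96 against 16.6 ± 4.55 TPM (limma adjusted p = 0.0551), and passed without ENT1KO replicate 15 (0.0135). Srf, the serum response factor, was level (43.3 ± 5.34 against 41.8 ± 2.29 TPM), and neither Trerf1 (4.80 ± 0.735 against 6.26 ± 0.852 TPM) nor Nfkbie passed.

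The transcription machinery, ribosome and RNA processing group had 1 rise and 1 fall among 7. Taf8, a subunit of the general transcription factor TFIID, was at 31.6, 29.2, 25.9 and 30.4 TPM in ENT1KO and 20.04, 13.0 and 20.6 TPM in WT (log2 0.70, SE 0.17, limma adjusted p = 0.01). Rpl7l1, a ribosome biogenesis protein related to a ribosomal protein, was at 48.6, 51.8, 47.9 and 43.97 TPM in ENT1KO and 74.3, 90.8 and 79.3 TPM in WT. For both genes the groups were clear of each other, and for Rpl7l1 the spread within each was small beside the difference (log2 -0.75, SE 0.11, limma adjusted p = 0.00167). Xpo5, which exports microRNA precursors, and Rrp36, an rRNA processing factor, had groups apart, ENT1KO lower, without passing (20.9 ± 0.721 against 24.7 ± 2.29 TPM and 24.1 ± 1.42 against 28.0 ± 2.10 TPM, limma adjusted p = 0.0882 and 0.112). Polr1c, a subunit of RNA polymerases I and III, was at 59.3 ± 8.08 against 69.0 ± 5.39 TPM and Supt3, a SAGA complex subunit whose span overlaps Runx2, at 12.3 ± 2.05 against 14.1 ± 2.30 TPM, neither passing.

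Of 8 genes of transporters, channels and membrane traffic 2 rose and 3 fell. Abcc10, an efflux pump, rose from 2.03 ± 0.474 to 4.56 ± 0.561 TPM (log2 0.88, limma adjusted p = 0.00623) and the chloride intracellular channel gene Clic5 from 0.553 ± 0.0802 to 1.15 ± 0.210 TPM (log2 0.47, limma adjusted p = 0.0435). Klc4, a kinesin light chain, fell with Slc35b2 and Tmem63b, from 8.11 ± 0.780 to 5.945 ± 0.2105 TPM (log2 -0.39, limma adjusted p = 0.0408). The calls of Clic5 and Klc4 were lost whichever library was left out (limma adjusted p from 0.0564 to 0.141 and from 0.0586 to 0.136). Slc25a27, the Golgi protein gene Yipf3 (40.6 ± 2.53 against 42.1 ± 4.10 TPM) and the junction gene Tjap1 (20.4 ± 2.25 against 25.02 ± 3.502 TPM) did not pass.

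The chaperone and protein folding group had 1 rise and 2 falls among 4, and the signalling and enzyme group 1 rise among 3. Cnpy3, a chaperone of Toll-like receptors, fell with Hsp90ab1, from 35.6 ± 4.15 to 25.7 ± 1.72 TPM (log2 -0.45, limma adjusted p = 0.0114). Pex6, an ATPase of peroxisome assembly, was at 11.9, 13.1, 14.4 and 12.4 TPM in ENT1KO and 8.41, 9.25 and 9.51 TPM in WT, a rise without overlap (log2 0.47, SE 0.12, limma adjusted p = 0.0134). Tbcc, a tubulin folding cofactor, did not pass (8.19 ± 1.95 against 10.3 ± 1.68 TPM). Gtpbp2, a GTPase of ribosome rescue (46471958 to 46480296), had the largest rise of the 46 genes on the log2(TPM + 1) scale, from 68.7, 42.9 and 66.5 TPM in WT to 147.8, 124.5, 120.3 and 127.3 TPM in ENT1KO. Each ENT1KO library was well above each WT library, and WT replicate 2 was the lowest (log2 1.14, SE 0.17, limma adjusted p = 0.002). By the ratio of mean TPM, Abcc10 rose slightly more, 2.24-fold against 2.19-fold for Gtpbp2, and on log2(normalized count + 1) Abcc10 (1.29) and Clic5 (1.03) were both above Gtpbp2 (0.80). Ppp2r5d, a regulatory subunit of protein phosphatase PP2A, did not pass (31.2 ± 4.50 against 36.1 ± 1.93 TPM), nor did Aars2.

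The 6 genes placed in no role group had 1 rise and 2 falls. Bicral, a subunit of a BAF chromatin remodelling complex, was at 17.98, 21.5, 16.4 and 22.9 TPM in ENT1KO and 12.3, 9.11 and 12.5 TPM in WT (log2 0.75, SE 0.16, limma adjusted p = 0.00724). Rsph9, a ciliary radial spoke gene whose span overlaps Mrps18a, fell from 2.32 ± 0.386 to 0.432 ± 0.340 TPM (log2 -1.24). Guca1a, a photoreceptor gene overlapped by the gene model Gm50461, was at 0.27, 0.25, 0.67 and 0 TPM in ENT1KO and 3.90, 4.83 and 2.47 TPM in WT, but its normalized count in the authors' deposited table was 0 in all 7 libraries. The 2 deposited tables thus disagree on whether reads belong to Guca1a, as for 2.28% of all tested genes, and its fall (log2 -1.86) is given as a TPM value only. Without it 15 genes fell. Runx2os1 (3.69 ± 0.332 against 3.01 ± 0.781 TPM), 2310039H08Rik (9.14 ± 1.91 against 11.2 ± 1.29 TPM) and B230354K17Rik did not pass.

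**Figure D3:**
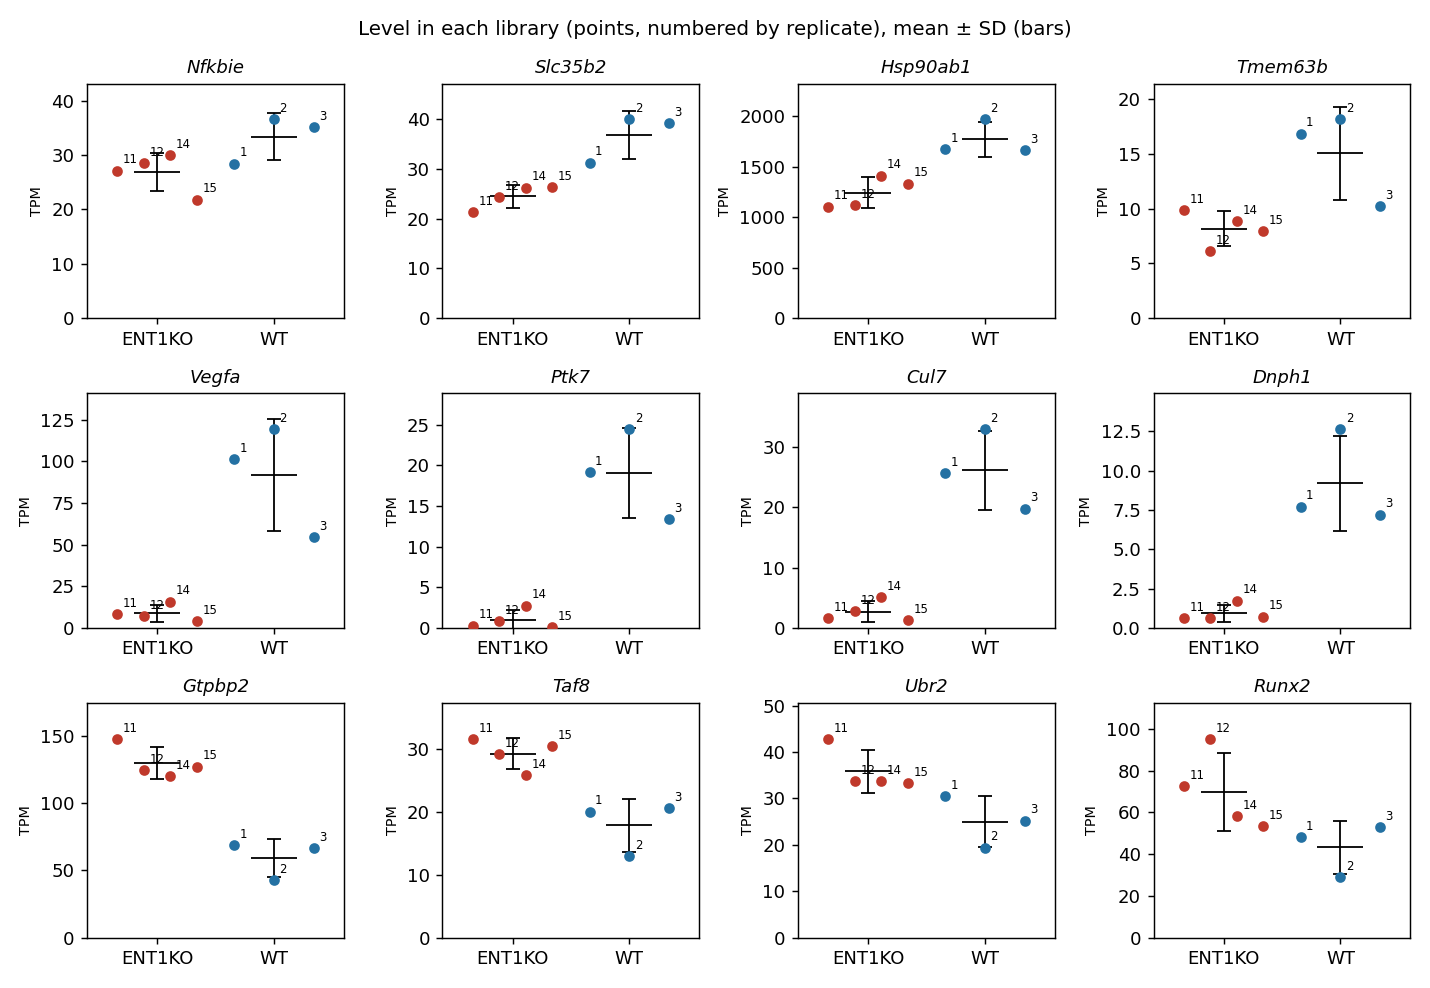
TPM in each library for 12 flanking genes, each point numbered by its replicate, with the mean and SD of 4 ENT1KO and 3 WT libraries as black bars (clipped at 0 for Ptk7). In Vegfa, Ptk7, Cul7 and Dnph1 replicate 14 stands highest among ENT1KO, whereas in Slc35b2, Tmem63b, Taf8 and Ubr2 it lies within the other ENT1KO libraries or at their edge.

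Adjacent genes did not all share a sign. Along the chromosome Rsph9 (lower), Mad2l1bp (not passing), Gtpbp2 (higher) and Polh (lower) follow one another among the 46 genes, as do Dnph1 (lower), Cul9 and Srf (not passing) and Ptk7 (lower). The starts of Polh and Xpo5 lie 170 bases apart on opposite strands, so their promoter windows share 269 bases, yet Polh passed as lower and Xpo5 did not, at log2 differences of -0.65 and -0.23. On normalized counts both passed as lower, at -0.80 and -0.35 (limma adjusted p = 0.0045 and 0.0341). The difference between these differences was not tested. Of the 46 genes, 41 had a window of 300 bases in RefSeq (GRCm38.p6), which runs from 250 bases before the start to 50 after it. Windows of Gtpbp2, the largest rise on the log2(TPM + 1) scale, of the strongly expressed gene Vegfa among the large falls and of Xpo5 are shown 5′ to 3′, with capitals for matches on either strand to 5 motifs, each counted on its own, so that matches of different motifs may overlap. The sequence labelled Xpo5 and Polh is the whole Xpo5 window of 300 bases, read on the Xpo5 strand. Its last 269 bases, from 46202592 to 46202860, are those shared with the Polh window. These are the hypoxia-inducible factor core ACGTG, the NF-Y box with the letters CCAAT, the GC box, which is GGGCGG, the TATA box written as TATAAA, and the C/EBP-ATF composite element with the letters TGATGNAAN. Coordinates are chr17:46032328-46032627 (minus strand) for Vegfa, chr17:46160782-46161081 (plus strand) for Gtpbp2 and chr17:46202561-46202860 (plus strand) for Xpo5.
Vegfa: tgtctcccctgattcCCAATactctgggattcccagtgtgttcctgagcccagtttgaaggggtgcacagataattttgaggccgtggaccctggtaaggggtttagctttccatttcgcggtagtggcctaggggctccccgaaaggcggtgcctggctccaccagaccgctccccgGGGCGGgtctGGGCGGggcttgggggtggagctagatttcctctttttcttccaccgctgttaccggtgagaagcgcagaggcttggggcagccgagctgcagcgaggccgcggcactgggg
Gtpbp2: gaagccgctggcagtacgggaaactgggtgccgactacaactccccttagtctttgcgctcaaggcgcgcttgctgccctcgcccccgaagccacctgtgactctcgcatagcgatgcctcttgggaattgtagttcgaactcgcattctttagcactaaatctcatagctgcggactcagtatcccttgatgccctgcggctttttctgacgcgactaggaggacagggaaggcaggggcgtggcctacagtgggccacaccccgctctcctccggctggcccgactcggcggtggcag
Xpo5 and Polh: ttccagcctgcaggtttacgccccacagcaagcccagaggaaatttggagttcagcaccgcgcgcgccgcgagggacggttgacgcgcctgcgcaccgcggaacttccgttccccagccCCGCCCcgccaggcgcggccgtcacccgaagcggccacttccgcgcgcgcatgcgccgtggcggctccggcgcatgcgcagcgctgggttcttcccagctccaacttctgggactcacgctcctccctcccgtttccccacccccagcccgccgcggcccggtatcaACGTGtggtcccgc
The Vegfa window held 2 matches to GGGCGG and 1 to CCAAT, the Gtpbp2 window none of the 5 motifs, and the Xpo5 window 1 match to GGGCGG and 1 to ACGTG. Among the 41 flanking genes with a window, GGGCGG was present in 31 (75.6%) and in 35.9% of 27025 genes with a window, ACGTG in 14 (34.1%) and 19.6%, CCAAT in 14 (34.1%) and 38.0%, TATAAA in 4 (9.76%) and 14.2%, and TGATGNAAN in 0 and 4.04%. The 41 flanking genes had all met the expression rule, whereas the 27025 genes were taken without an expression filter. The 2 shares of each motif are therefore not of like sets of genes. These matches describe letters only.

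The ENT1KO libraries kept a similar order in the largest falls. All 7 falls of more than 1 on the log2 scale (Vegfa, Ptk7, Cul7, Dnph1, Rcan2, Guca1a and Rsph9) were highest among ENT1KO in replicate 14, the ENT1KO library with the most fibroblast and tumour transcript (1079.8 TPM), and 5 of the 7 were lowest in replicate 15, the one with the least (7.71 TPM). Dnph1 was lowest in replicate 12, and Rcan2, at 0 TPM in both replicates 11 and 15, is not counted among the 5. Of these 7, Ptk7, Dnph1, Rcan2, Guca1a and Rsph9 had met the expression rule only through WT. Of the 9 smaller falls, 3 were highest in replicate 14, which makes 10 of all 16, a smaller share than the 74.1% of the called falls over all tested genes. In 5 of the 16 replicate 15 was also the lowest, against 46.3% of the called falls over all tested genes. Over all tested genes, replicate 14 was the highest ENT1KO library for 86.7% of the larger called falls and 51.9% of the smaller ones. Without ENT1KO replicate 14 the 46 genes had 6 rises and 14 falls (43.5%, beside 46.9% of all tested genes, of which 24.1% were higher and 22.8% lower). Among the 7 rises, WT replicate 2, which had the lowest identity list (3312 TPM) and the highest fibroblast and tumour list (9665 TPM) of all libraries, was the lowest WT library for 6, beside 88.4% of all called rises. The part of tumour and T cell content in single genes was not tested by these orders.

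With the level of a cell type list added to the fit, none of the 46 genes passed in limma, beside 0.0% of all tested genes, or 0.0217% with the macrophage and monocyte list. An unadjusted p under 0.05 was reached by 8 with the CD8 T cell identity list (17.4%, beside 10.1% of all tested genes), by 7 with the fibroblast and tumour list (15.2%, beside 8.83%) and by 10 with the macrophage and monocyte list (21.7%, beside 12.2%). Rcan2, Dnph1 and Ptk7 are counted with each of these lists, and Guca1a with the identity list and the macrophage list. All of them had met the expression rule only through WT, which favours a difference. With both the T cell identity and the fibroblast and tumour list an unadjusted p under 0.05 was reached by 4 (8.70%, beside 4.99%). They were Rcan2, Mad2l1bp, Srf and Cul7. Of these, Mad2l1bp turned from 0.33 with genotype alone to -0.63 (95% interval -1.26 to -0.0049) and Srf went from 0.04 to 0.55 (0.03 to 1.08). These fits have little room, since the list levels do not overlap between the genotypes. Slc29a1 itself, at a log2 difference of -1.33 (SE 0.30) with both lists, did not pass there either (limma adjusted p = 0.877), and of all 13798 genes none passed with the identity list (1390 at an unadjusted p under 0.05), the fibroblast and tumour list (1219) or both (689), and 3 with the macrophage list (1689). A missing call therefore does not show that a flanking gene is level.

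The sizes of the differences moved with the lists. With both lists in the fit, Vegfa went from -3.32 to -0.75 (95% interval -1.73 to 0.22), Ptk7 from -3.49 to -0.97 (-1.95 to 0.01), Cul7 from -2.98 to -0.94 (-1.81 to -0.08), Dnph1 from -2.40 to -1.10 (-2.21 to 0.01) and Rcan2 from -2.18 to -1.04 (-1.94 to -0.15). Among the closest neighbours, Slc35b2 was at -0.48 (-1.30 to 0.35), Hsp90ab1 at -0.18 (-0.84 to 0.48), Tmem63b at -0.09 (-1.14 to 0.95) and Nfkbie at 0.15 (-0.60 to 0.90). Polh and Rpl7l1, which fell by less than 2-fold, were at -0.55 (-1.44 to 0.34) and -0.49 (-1.11 to 0.14). Of the rises, Gtpbp2 was at 0.50 (-0.30 to 1.29), Abcc10 at 0.65 (-0.38 to 1.68) and Pex6 at 0.66 (-0.07 to 1.40), while Taf8 was at -0.06 (-0.76 to 0.65) and Ubr2 at 0.15 (-0.83 to 1.12). The median over the 46 genes was -0.07, beside 0.02 over all tested genes.

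**Figure D4:**
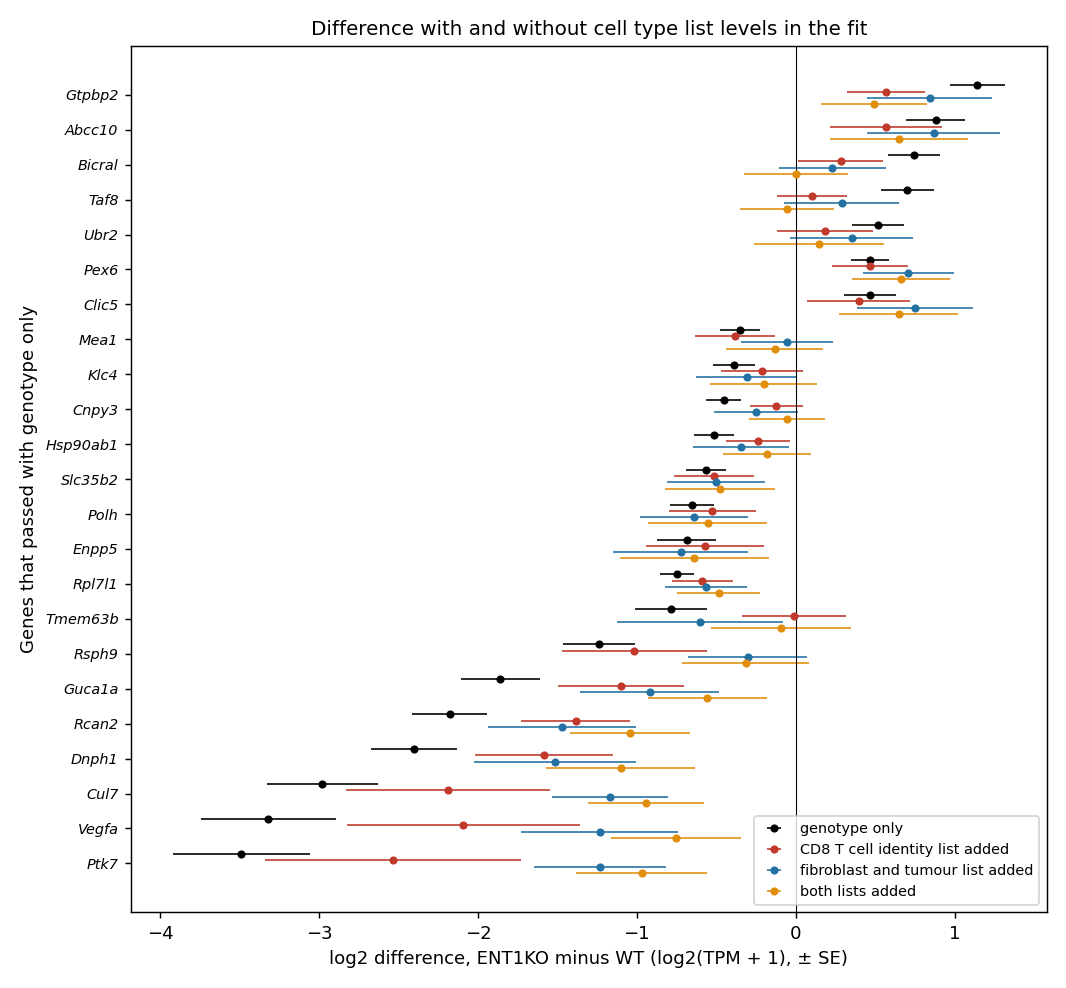
Log2 difference between ENT1KO and WT (± SE) for the 23 flanking genes that passed with genotype alone (black), and for the same genes with the CD8 T cell identity list (red), the fibroblast and tumour list (blue) or both lists (orange) in the fit. The large falls of Ptk7, Vegfa and Cul7 shrink to between -0.97 and -0.75 with both lists, and Slc35b2 and Polh lie at -0.48 and -0.55 with wide error bars.

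Levels were also taken relative to the CD8 T cell identity list, which shifts each gene by the same amount. The list's mean log2 level was 1.19 higher in ENT1KO, and after it was subtracted from each library all 46 genes had a negative difference, with a median of -1.41 beside -1.04 over all tested genes, of which 3.49% were above 0. The shift is larger than any rise among the 46, so the change of sign follows from the scaling, and the median of the flanking genes relative to that of all genes stayed at -0.37. The 7 genes that rose in TPM lay between -0.72 (Clic5) and -0.04 (Gtpbp2), with overlapping groups in each. The groups were apart and lower for 34 of the 46 genes, beside 67.9% of all tested genes, and apart and higher for none, beside 0.275%.

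The authors' count-based values gave more calls among the flanking genes. In the authors' deposited table, adjusted p-values below 0.05 were given for 31 of the 45 flanking genes that have one (68.9%), 10 higher and 21 lower, beside 51.2% of tested genes, of which 22.2% were higher and 29.0% lower. Of the 23 limma calls on TPM, 22 were below 0.05 there with the same sign, Guca1a being the one without an adjusted p. In limma on log2(normalized count + 1), 9 rose and 21 fell (65.2%, beside 48.9% of all tested genes, 21.0% higher and 28.0% lower), and the rises were 30.0% of the calls, as on TPM (30.4%), whereas over all genes they were 42.9% of the calls there and 54.4% on TPM. After quantile normalization of the TPM values, 13 rose and 18 fell (67.4%, beside 56.0% of all tested genes, 33.0% higher and 23.0% lower), so that rises made up 41.9% of the calls. On normalized counts the median of all genes was 0.00, lower by 0.15 than on TPM, and that of the flanking genes -0.36. Relative to the median of all genes the flanking genes therefore stood at -0.37 on TPM and -0.36 on normalized counts.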

How the data were processed

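Poly(A)-selected RNA-seq libraries from 75 ng of RNA (at least 30000 sorted cells per condition, per the labels' protocols) were compared, 4 ENT1KO against 3 WT, grouped by title. The deposited TPM values were made by the authors. A second deposited table holds normalized counts (a signal scaled per sample by the authors), log2 fold changes, group means on a log2 scale, a score (the authors' test statistic) and the authors' p-values. Build GRCm39 and the tools STAR 2.7.1a, Trimmomatic (0.35 and 0.38), DESeq, DESeq2 1.30.1 and RSEM stand in the submitters' processing notes, without roles. Each column of normalized counts was in whole multiples of 1 step (100% within 0.01), which gave the read totals, but the steps of WT replicates 1 and 3 lie too near 1 to prove whole reads, so no count test was run and no counting intervals are given.

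Genes at 1 TPM or more in 3 libraries (13798) were tested with limma-trend with robust empirical Bayes (limma 3.58.1, R 4.3.3) on log2(TPM + 1), genotype as the only term, Benjamini-Hochberg over all tested genes. Cell type lists, role groups and members were chosen with earlier results of these data known, and the fit with both lists was added after the data were seen. A list level is the mean log2(TPM + 1) of its tested genes. Values in every library are given for genes within 0.25 Mb, the largest 6 rises and falls among calls with a mean of at least 5 TPM (5 such rises exist) and the 3 most abundant genes. Dnph1, Rcan2, Runx2 and Guca1a were added after their values were seen. A planned ranking by likeness to Slc29a1 was not used, because the libraries form 2 clusters. Exact permutation over the 35 splits cannot give less than 0.0286. It gave 0.0286 for 22 of the 23 called genes and 0.0571 for Mea1. The deposited TPM table alone is named as stranded, so values of overlapping genes are less certain in the other. Figures were drawn with matplotlib 3.10.9 (Python 3.11.15).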

Additional observations from a re-analysis of the deposited data

Results flagged for a closer look

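In 3 flanking genes 1 ENT1KO library stood apart from the other 3, the gap to its nearest neighbour, as a share of the range of the 4 on the log2(TPM + 1) scale, being above Dixon's 95% critical value. About 1 in 20 groups is marked in this way by chance, and 46 genes were examined. Dnph1 was at 1.73 TPM in ENT1KO replicate 14, against 0.60 to 0.72 TPM in the others. Replicate 14 is also the ENT1KO library with the most fibroblast and tumour transcript. Rrp36 was at 21.95 TPM in ENT1KO replicate 11, against 24.5 to 25 TPM. Ubr2 was at 42.8 TPM in ENT1KO replicate 11, against 33.3 to 33.7 TPM.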

How the results depend on the processing

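No paired analysis was possible because ENT1KO and WT share no replicate number. With 1 library left out, 17 to 22 of the 46 flanking genes passed (main count 23), 4840 to 6853 of all genes passed (6982), and the median of the flanking genes lay between -0.26 and -0.19. Of the 23 calls, 17 held in each of the 7 such fits and 6 were lost in at least 1 (Enpp5, Clic5, Tmem63b, Klc4, Mea1 and Ubr2), while 5 genes that had not passed did so in at least 1. Pseudocounts of 0.1 and 5, both filters, quantile normalization and array weights gave 17 to 31 calls (43.5% to 67.4% of the flanking genes tested, beside 26% to 56% of all genes). Adding a list level took the calls to 0 of 46 with the identity list (0 of all genes), 0 with the fibroblast and tumour list (0 of all genes), 0 with the macrophage list (3 of all genes) and 0 with 2 lists (0 of all genes), and the median of the flanking genes to -0.13, -0.056, -0.065 and -0.067. The medians of all tested genes in these fits were -0.0087, 0.104, 0.099 and 0.020. On normalized counts the median of the flanking genes was -0.36, and relative to the identity list -1.41. Against that list the called rises turned to -0.72 (Clic5), -0.044 (Gtpbp2), -0.31 (Abcc10), -0.72 (Pex6), -0.44 (Bicral), -0.67 (Ubr2) and -0.48 (Taf8). With 2 lists in the fit Bicral was at -0.00080 and Taf8 at -0.057. Causes were not tested. Windows of 1, 5 and 10 Mb gave 39.1%, 52.8% and 55.2% called. Depth, as estimated from the normalized counts, was near equal between libraries, and genes of low TPM rest on fewer reads. Over the 7 libraries, normalized counts were 0.98 to 36.9 for Rsph9, 22.9 to 73.2 for Slc25a27 and 46.2 to 124.5 for Clic5.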
